A study of Mus musculus with 5 samples.

Results

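The cytosolic ribosomal protein genes encode the protein parts of the ribosome that translates nuclear mRNAs. They were taken as the table entries named Rpl or Rps with a number and at most a closing a, x, y or l with digits, together with Rplp0, Rplp1, Rplp2 and Rpsa, which gave 85 of 24970 genes. Of these, 52 belong to the large subunit and 33 to the small one, and 8 are paralogs whose symbol carries an l (Rpl22l1, Rps4l and the like), which leaves 77 standard members. RNA had been sequenced from dissected bladder urothelium of mice aged 10 weeks, 1 library per mouse. The 3 Ncstn KO mice carried Krt5CreERT2, a tamoxifen-inducible Cre driven by the basal keratin gene Krt5, with Ncstnflox/flox, and the 2 WT mice were C57Bl/6. Ncstn encodes nicastrin, a subunit of the gamma-secretase, the protease that frees the active part of Notch receptors. The question here is whether expression of the ribosome's proteins differs in urothelium in which Ncstn is deleted from the Krt5 lineage. The labels give no strain background for the KO mice and no induction scheme, so loss of Ncstn cannot be told apart from strain, Cre or its induction.

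Ribosomal proteins are made in near equal numbers, and their mRNAs are among the most abundant in a cell. Many of these mRNAs start with a run of pyrimidines at the 5′ end, through which mTOR signalling and the protein LARP1 set how strongly they are translated. Their compact genes have been copied back into mammalian genomes many times as processed pseudogenes, so short reads from one gene can align equally well elsewhere. In epithelia with a high rate of renewal or growth, ribosome production is a large part of gene expression.

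Gene counts per library were 27188499, 16872894 and 12608836 in KO 1 to KO 3 and 19384171 and 13936790 in WT 1 and WT 2. Ncstn itself had 114, 117 and 123 CPM (a gene's counts relative to all counts of its library, corrected with TMM factors) in KO libraries and 144 and 130 CPM in WT libraries, a log2 fold change of -0.21 (SE 0.09, edgeR adjusted p = 0.133). All 3 KO values lay below both WT values, but counts over the whole gene do not check the deletion of a part of it, and cells outside the Krt5 lineage keep the gene. All 13 urothelial markers were detected, and their summed level was 20780 to 23237 CPM in KO libraries and 14927 to 17070 CPM in WT libraries, with 5 of 13 higher in KO. The 7 fibroblast markers summed to 8270 to 9951 CPM in KO libraries and 14047 to 16011 CPM in WT libraries, with 7 of 7 lower in KO. The 4 endothelial markers summed to 170 to 199 CPM in KO libraries and 246 to 253 CPM in WT libraries, with 2 of 4 lower in KO. The 5 smooth muscle markers summed to 230 to 354 CPM in KO libraries and 246 to 364 CPM in WT libraries, so the sums overlapped. Their log2 fold changes went both ways, from -0.63 to 1.33 with 2 of 5 above 0, and edgeR called 0. DESeq2 called Acta2 and Cnn1 higher, as did edgeR without KO 3, against 10.0 and 11.8% of all genes. Without KO 2, edgeR called Myh11 lower, against 7.46% of all genes. The 6 immune markers summed to 69.1 to 134 CPM in KO libraries and 160 to 182 CPM in WT libraries, with 1 of the 5 tested lower in KO. Over all genes tested, edgeR called 9.64% higher and 10.0% lower. Without WT 1, fewer urothelial, fibroblast, endothelial and immune markers were called, as were fewer of all genes. In that fit the log2 fold change was above 0 for 13 of 13 urothelial and 0 of 7 fibroblast markers. It was above 0 for 0 of 4 endothelial and 2 of 5 immune markers. Leaving out another library gave 2 to 9 urothelial, 4 to 7 fibroblast, 2 to 3 endothelial and 0 to 3 immune calls, with the highest of these counts without KO 3 except the endothelial, which was highest without KO 2. The ribosomal RNA precursor Rn45s took 1.53, 1.14 and 0.608% of gene counts in KO 1 to KO 3 and 7.84 and 3.23% in WT 1 and WT 2. The part of cell composition and of RNA preparation in the values below was not tested. In bulk tissue, fewer cells that express a gene and less RNA per cell cannot be told apart.

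As a group, the ribosomal protein genes held 5.60, 5.69 and 4.96% of gene counts in KO 1 to KO 3, against 3.79% in WT 1 and 5.51% in WT 2. The share of WT 2 lay inside the KO range, and WT 1 stood below the other 4 libraries. Leaving Rn45s out of the total gave 5.69, 5.76 and 4.99% in KO libraries and 4.11 and 5.70% in WT libraries, with the same order of WT 1 below the rest. The large subunit members held 2.81 to 3.23% of gene counts in KO libraries, against 2.14 and 3.08% in WT libraries. The small subunit members held 2.15 to 2.47% in KO libraries, against 1.65 and 2.43% in WT libraries. Summed small subunit counts were 0.763 to 0.769 of the large subunit counts in KO libraries and 0.775 and 0.788 in WT libraries. The level of both subunits varied together between libraries, and their ratio was slightly lower in each KO than in each WT library. Single members weigh on this ratio. Rps2, with a log2 fold change of -0.72, is part of the small subunit sum. The ratio was not computed without Rps2, so a shift of a whole subunit cannot be read from these values.

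Most members were lowest in WT 1. Over the 77 members above 10 CPM, the median ratio to the level in WT 2 was 1.09, 1.10 and 0.926 for KO 1 to KO 3, and 0.711 for WT 1. Of the 82 members that passed the filter on low counts, 71 (86.6%) had their lowest value in WT 1, against 27.3% of all 14779 genes tested. KO 3 was the lowest of the 3 KO libraries for 75 of 82. The 2 WT libraries thus lay further apart for these genes than the KO libraries did.

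**Figure D1:**
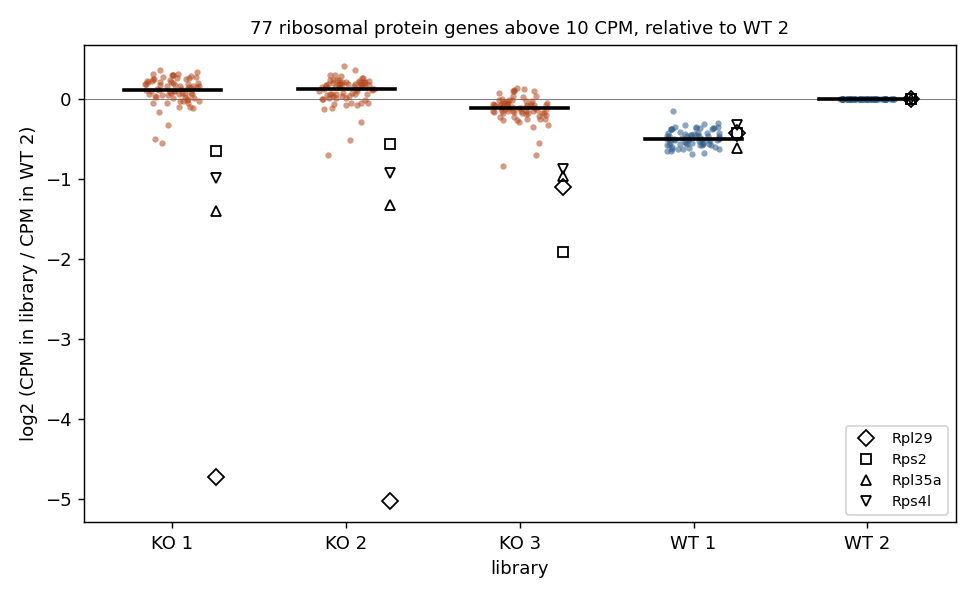
Level of the 77 ribosomal protein genes above 10 CPM in each library (horizontal axis) relative to WT 2, as the log2 ratio of CPM (vertical axis). Filled points are genes, orange for KO and blue for WT, black lines are medians over all 77, and open symbols mark 4 genes of lower level in KO. The cloud of WT 1 lies below the others, with a median ratio of 0.711.

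In the comparison of KO with WT, 4 of the 82 members tested (4.88%) passed the edgeR quasi-likelihood test at an adjusted p under 0.05, where 19.7% of all genes tested did. Rpl12 and Rps28 rose (2 of 82, against 9.64% of all genes) and Rpl35a and Rps4l fell (2 of 82, against 10.0% of all genes). At an unadjusted p under 0.05, 16 of 82 members were on the higher side and 5 on the lower. Of all 14779 genes tested, 2579 and 2566 were so placed. The log2 fold change was above 0 for 73 of 82 (89.0%), against 50.9% of all genes tested, with a median of 0.27 against 0.01. The quartiles of the members' log2 fold changes were 0.19 and 0.32. All 3 KO libraries were above both WT libraries for 11 of 82 members (13.4%), against 25.9% of all genes, and all 3 were below for 5 of 82 (6.10%), against 25.1%.

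**Figure D2:**
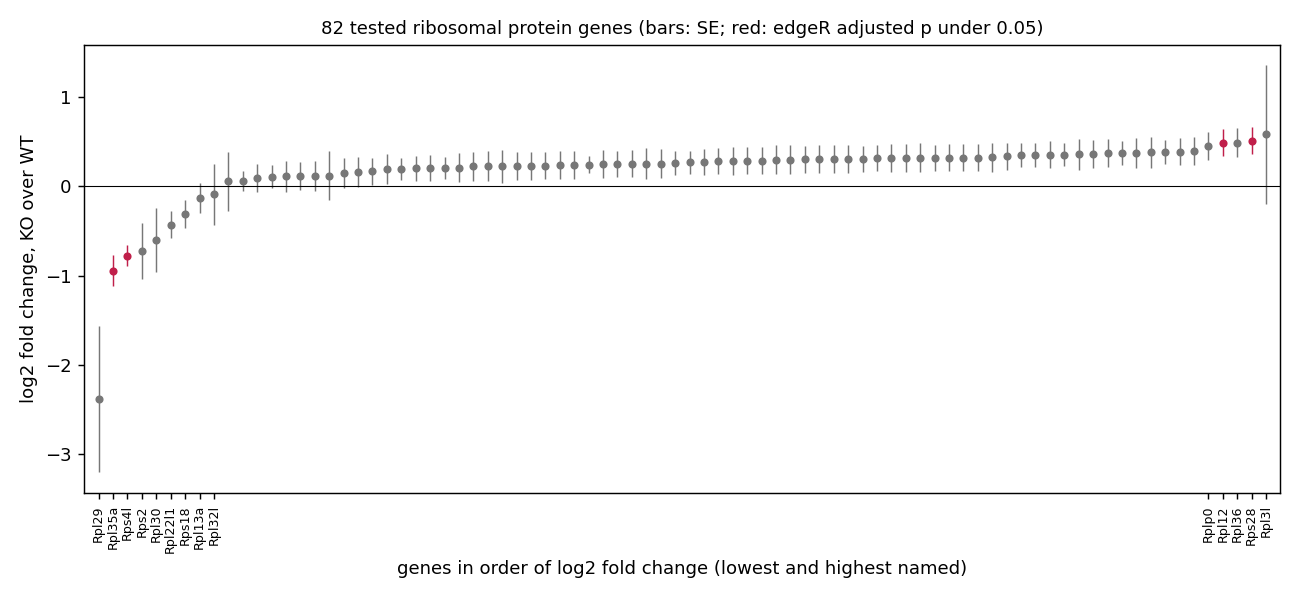
Log2 fold change, KO over WT (vertical axis), of the 82 tested ribosomal protein genes in order of that value (horizontal axis), with SE bars from the edgeR fit. Red points mark the 4 genes with an adjusted p under 0.05. Names are given for the 9 genes below 0 and the 5 highest, and most of the others sit between 0.1 and 0.5.

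The direction of the group rested on WT 1. Without that library, 49 of 81 members were above 0, and the median log2 fold change was 0.05. Without WT 2, 75 of 82 were above 0, and the median was 0.51. Each of these fits has 1 WT library, whose spread is assumed to be that of the KO libraries.

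**Figure D3:**
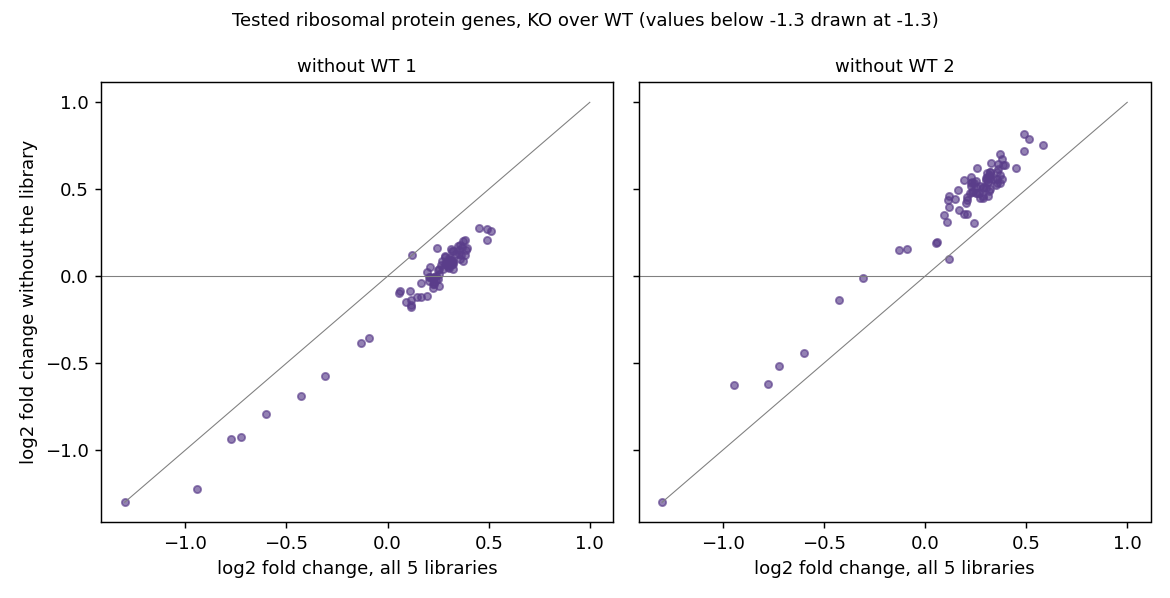
Log2 fold change of each tested member from all 5 libraries (horizontal axis) against the value without WT 1 (left) and without WT 2 (right), with the line of equal values. Without WT 1 the points fall below the line and gather near 0, with a median of 0.05, and without WT 2 most lie above it, with a median of 0.51.

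Stretches of coding sequence are shown for Rpl29, Rps2, Rpl35a and Rps15a with 1 of the near-identical copies of each, and for Rps4x with Rps4l, since these pairs bear on how reads could be placed. They are exonic, from GENCODE vM21 on GRCm38, and capitals mark bases that differ within a pair. The genes lie at chr9:106429454-106431568 (Rpl29, plus strand), chr17:24718116-24721929 (Rps2, plus), chr16:33056453-33060189 (Rpl35a, plus), chr7:118104372-118116188 (Rps15a, minus), chrX:102184941-102189394 (Rps4x, minus) and chr6:148354656-148355598 (Rps4l, plus).
Rpl29: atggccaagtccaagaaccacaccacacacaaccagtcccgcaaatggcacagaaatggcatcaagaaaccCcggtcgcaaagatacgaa
Gm13841: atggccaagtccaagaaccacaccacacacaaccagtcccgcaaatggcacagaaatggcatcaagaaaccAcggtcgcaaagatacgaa
Rps2: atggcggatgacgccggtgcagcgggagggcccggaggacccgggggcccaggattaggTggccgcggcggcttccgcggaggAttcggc
Rps2-ps13: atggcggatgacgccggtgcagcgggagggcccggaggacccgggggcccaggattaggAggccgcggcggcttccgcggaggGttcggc
Rpl35a: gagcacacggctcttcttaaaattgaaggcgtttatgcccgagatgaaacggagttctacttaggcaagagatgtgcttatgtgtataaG
Gm10243: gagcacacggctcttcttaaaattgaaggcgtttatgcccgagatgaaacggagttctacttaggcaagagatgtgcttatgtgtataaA
Rps15a: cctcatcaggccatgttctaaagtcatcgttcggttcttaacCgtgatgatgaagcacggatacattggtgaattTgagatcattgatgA
Rps15a-ps6: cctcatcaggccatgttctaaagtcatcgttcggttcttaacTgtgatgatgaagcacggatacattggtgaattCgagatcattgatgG
Rps4x: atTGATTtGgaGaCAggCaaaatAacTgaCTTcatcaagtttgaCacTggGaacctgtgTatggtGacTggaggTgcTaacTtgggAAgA
Rps4l: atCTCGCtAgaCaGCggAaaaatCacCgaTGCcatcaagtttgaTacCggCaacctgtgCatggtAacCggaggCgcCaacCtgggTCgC
Positions are counted from 1 at the first coding base, and each stretch is 90 bases long. Rpl29 and Gm13841 differ there by C72A alone, and by 3 bases over the 483 coding bases. Rps2 and Rps2-ps13 differ by T60A and A84G, and Rpl35a and Gm10243 by G156A, the single difference over 333 bases. Rps4x and Rps4l differ at 27 of the 90 positions, with an identity of 79.8% over the coding length.

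Copies were common across the group. A copy was an annotated gene outside the member's locus. One of its transcripts had to match the member's coding sequence at 95% identity or more over at least 90% of its length. Copies that overlap each other in the genome were counted separately, such as Ciapin1 and Gm7418 for Rpl7a, so separate copies are fewer. By that rule 78 of 85 members had at least 1 copy, 17 had 10 or more, and there were 578 member and copy pairs in all. Rpl21 had 56, Rpl7a 32, Rpl29 27, Rps2 24 and Rpl35a 14 copies, whereas Rpl8 and Rps3 were among those with none. For 27 members every run of 50 bases of the coding sequence also occurred in a transcript of another gene, Rpl12 and Rps28 among them. No source used here says how reads with several alignments were treated. Reads tallied as not uniquely aligned were 22.3 to 25.8% of all tallied reads in KO libraries and 24.3 and 25.1% in WT libraries, so the groups overlapped.

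Levels were lower in members with more copies. Among standard members, the median over 5 libraries was 1195 CPM per kb for the 12 genes with 0 or 1 copy, 792 CPM per kb for the 48 with 2 to 9, and 411 CPM per kb for the 17 with 10 or more. Rpl26 was listed at 0 in all libraries, and Rpl30, Rpl34 and Rps27 had a mean of 2.13, 4.73 and 6.85 CPM per kb. All 4 have copies of 99% identity or more, but so do members of far higher level, such as Rpl12 with 3 and Rps28 with 4. Each of the 4 has such a copy with its own entry at 0 in all libraries (Gm15772, Gm12191, Rpl34-ps1 and Rps27rt). Rps27rt matches Rps27 base for base over its 255 coding bases. How reads shared with these copies were counted is not known, so the low levels of these 4 are uncertain as measures of their mRNA. The median log2 fold change was 0.30, 0.30 and 0.22 in the 3 classes of standard members. The 4 standard members with all KO below all WT (Rpl29, Rpl30, Rpl35a and Rps2) all had 10 or more copies. They are 4 of the 17 members in that class (23.5%), near the 25.1% of all genes tested that were so placed.

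**Figure D4:**
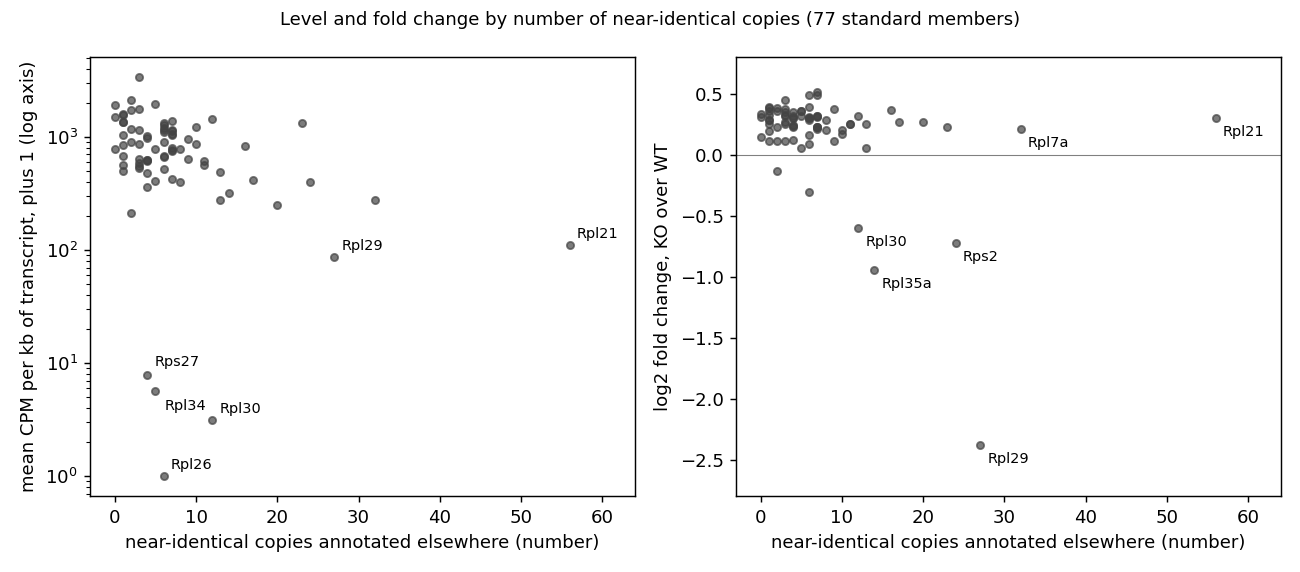
Number of near-identical copies of each standard member (horizontal axes) against its mean CPM per kb of transcript plus 1 on a log axis (left, 77 genes) and its log2 fold change, KO over WT (right, 76 tested genes). Rpl26, Rpl30, Rpl34 and Rps27 stand apart at the bottom on the left, and Rpl29, Rpl35a, Rps2 and Rpl30, each with 10 or more copies, lie below the others on the right.

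The starts of transcripts are shown for Rpl35a, Rps18 and Rpl22l1, whose log2 fold change was below 0, for Rpl35, near the middle of the group, and for Rpl12 and Rps28, which rose. They come from the RefSeq promoter windows on GRCm38.p6, each with 10 bases before the annotated start and the 20 bases from it on. The windows are chr16:33056472-33056501 for Rpl35a, chr17:33955646-33955675 for Rps18, chr3:28805498-28805527 for Rpl22l1, chr2:39005112-39005141 for Rpl35, chr2:32961702-32961731 for Rpl12 and chr17:33824543-33824572 for Rps28, printed on the strand of the gene. Capitals mark a pyrimidine tract, here a C followed by at least 6 further C or T bases within 10 bases of the start.
Rpl35a: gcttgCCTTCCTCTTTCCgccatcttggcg
Rps18: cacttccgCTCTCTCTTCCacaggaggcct
Rpl22l1: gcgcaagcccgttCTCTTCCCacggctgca
Rpl35: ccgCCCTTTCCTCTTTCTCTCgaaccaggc
Rpl12: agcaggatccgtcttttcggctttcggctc
Rps28: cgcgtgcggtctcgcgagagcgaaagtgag
The tract was 13 bases long in Rpl35a, 11 in Rps18, 8 in Rpl22l1 and 18 in Rpl35, and the windows of Rpl12 and Rps28 held none by this definition. Of the 64 members with a window, 31 (48.4%) had such a tract, against 14.1% of 27025 genes. The letters CCGGAAG, the core of many ETS factor sites, were found on either strand of the 300-base window in 26 of 64 (40.6%), against 9.93% of genes. AAGATGGC, a YY1-type motif, was found in 6 (9.38%), against 3.19%, and TATAAA in 8 (12.5%), against 15.7%. The median log2 fold change was 0.23 for 30 tested members with a tract and 0.26 for 31 without.

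Of the large subunit, 49 members were tested. Rpl12, which lies at the base of the stalk where translation factors dock, had 995, 1012 and 855 CPM in KO 1 to KO 3, against 571 and 787 CPM in WT 1 and WT 2. The groups did not overlap, and KO 3 exceeded WT 2 by the smallest margin. This gave a log2 fold change of 0.49 (SE 0.15, edgeR adjusted p = 0.0458). Without WT 1 it was 0.27, with an edgeR adjusted p of 0.317, so the call rested on that library.

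The 3 genes of the stalk itself did not pass the edgeR test, 1 of them at an unadjusted p under 0.05, and DESeq2 and limma-voom each called Rplp0. Rplp0, the scaffold that binds the P1 and P2 proteins, had 2767, 2949 and 2377 CPM in KO libraries and 1733 and 2216 CPM in WT libraries. Its groups did not overlap, and the log2 fold change was 0.45 (SE 0.15, edgeR adjusted p = 0.0658). Rplp1 had 1741, 1884 and 1586 CPM in KO libraries and 1269 and 1939 CPM in WT libraries, so that WT 2 was above all 3 KO libraries. Rplp2 had 724, 762 and 679 CPM in KO libraries and 470 and 684 CPM in WT libraries, with KO 3 below WT 2. Per kb of transcript, Rplp1 had the highest level of any member, with a mean of 3374 CPM per kb over the 5 libraries.

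Rpl5 and Rpl11, which with the small ribosomal RNA of the large subunit form a particle that can bind MDM2, did not pass the test either. Rpl5 had 985, 956 and 757 CPM in KO libraries, against 629 and 811 CPM in WT libraries, a log2 fold change of 0.32 (SE 0.15, edgeR adjusted p = 0.164). Rpl11 had 606, 608 and 525 CPM in KO libraries, against 407 and 628 CPM in WT libraries, a log2 fold change of 0.16 (SE 0.17, edgeR adjusted p = 0.520). Both had WT 2 within or above the KO values. Of 8 genes listed for the polypeptide exit tunnel, 7 were tested, with 0 passing in edgeR (0 at an unadjusted p under 0.05), DESeq2 or limma-voom, and log2 fold changes of 0.12 to 0.32. Rpl4, a tunnel protein and one of the most counted members, had 2359, 2369 and 1978 CPM in KO libraries, against 1602 and 2065 CPM in WT libraries, with KO 3 below WT 2. Rpl36 had 454, 471 and 431 CPM in KO libraries and 254 and 390 CPM in WT libraries, without overlap, at a log2 fold change of 0.49 (SE 0.16) and an edgeR adjusted p of 0.0570.

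Rpl35a is a large subunit gene mutated in some human patients with Diamond-Blackfan anaemia. It had 101, 107 and 137 CPM in KO 1 to KO 3, against 175 and 266 CPM in WT 1 and WT 2. All KO values lay below all WT values, with KO 3 the nearest to WT. Its log2 fold change was -0.94 (SE 0.18, edgeR adjusted p = 0.00548), and without WT 2 it was -0.63, with an edgeR adjusted p of 0.0568. Within the summed ribosomal protein counts, Rpl35a held 0.176, 0.184 and 0.281% in KO libraries and 0.456 and 0.497% in WT libraries. Of the 10 genes listed for that human disease, 9 were tested, and Rpl35a was the 1 that passed. That is 11.1% of the list, near the 10.0% of all genes called lower. The other 8 (88.9%) had a log2 fold change above 0, near the 89.0% of all members tested.

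Rpl29 encodes a large subunit protein that is dispensable for viability in mice. It had 110, 56 and 657 counts in KO 1 to KO 3, against 1558 and 1567 counts in WT 1 and WT 2. In CPM these were 4.14, 3.37 and 51.2 in KO libraries and 81.4 and 109 in WT libraries. KO 1 and KO 2 were far below the other 3 libraries, and KO 3 lay closer to WT 1 than to its own group. This came to a log2 fold change of -2.38 (SE 0.82, edgeR adjusted p = 0.0658), and without KO 3 it was -4.65, with an edgeR adjusted p of 7.75e-10.

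Of the small subunit, all 33 members were tested. Rps28, a protein at the mRNA exit of the small subunit, had 454, 436 and 384 CPM in KO libraries, against 243 and 353 CPM in WT libraries. The groups did not overlap, and WT 1 was the lowest by a wide margin. Its log2 fold change was 0.51 (SE 0.15, edgeR adjusted p = 0.0419), and 0.26 without WT 1, with an edgeR adjusted p of 0.301. Rps3, at the mRNA entry, had 1659, 1604 and 1418 CPM in KO libraries, against 1134 and 1686 CPM in WT libraries, so that WT 2 was above all 3 KO libraries. Of 6 genes listed for the mRNA channel, 5 had a log2 fold change above 0 and 0 passed in edgeR, with 2 at an unadjusted p under 0.05, while DESeq2 called 1 and limma-voom 0.

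Rps2, which lines the mRNA entry, was the exception in that list. It had 384, 409 and 160 CPM in KO 1 to KO 3, against 450 and 602 CPM in WT 1 and WT 2. All KO values lay below all WT values, and here KO 3 was the low library, whereas for Rpl29 it was the high one. On the log2 scale the fold change was -0.72 (SE 0.31, edgeR adjusted p = 0.127), and -0.42 without KO 3, with an edgeR adjusted p of 0.0369. Rps18, in the head of the small subunit, had 688, 683 and 597 CPM in KO libraries, against 654 and 972 CPM in WT libraries, at a log2 fold change of -0.31 (SE 0.16, edgeR adjusted p = 0.197). Without WT 1 the log2 fold change of Rps18 was -0.57, and without WT 2 it was -0.01.

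**Figure D5:**
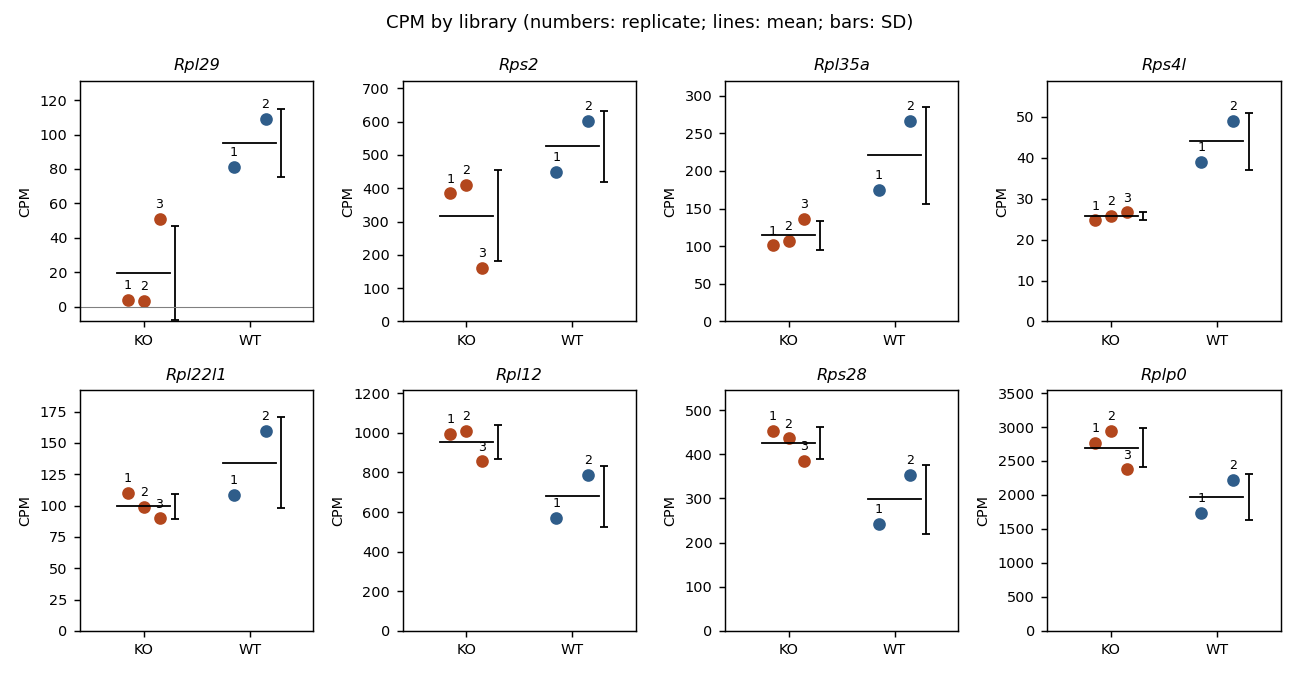
CPM (vertical axes, from 0 or from below it where the SD bar reaches under 0) of 8 ribosomal protein genes in each KO (orange, left) and WT (blue, right) library, with replicate numbers, group means as lines and SD bars (3 KO, 2 WT). Rpl29, Rps2, Rpl35a and Rps4l have all KO points below all WT points, and Rpl12, Rps28 and Rplp0 have all KO points above.

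Because the total varied between libraries, each member was also expressed as a share of the summed ribosomal protein counts of its library, which removes any common shift. Of the 73 standard members above 10 CPM, 68 had a mean KO share that was 0.8 to 1.25 times the WT share. The 5 outside that range were Rpl13a (0.772), Rps18 (0.684), Rps2 (0.495), Rpl35a (0.449) and Rpl29 (0.189), all of them lower in KO. Among the 82 tested members, 22 (26.8%) had a higher share in all KO than in all WT libraries and 17 (20.7%) a lower one. For all genes divided by the same summed count, 5.10% and 28.6% were so placed. That divisor is made of the members themselves and was low in WT 1, so it shifts other genes downward in KO. These shares are therefore no even background for the members. A share is relative, so members that hold less leave more to the others. Rpl12 held 1.73, 1.75 and 1.76% in KO libraries and 1.49 and 1.47% in WT libraries. The ratio of the mean KO share to the mean WT share was at most 1.20 for any of the 22.

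Paralogs of ribosomal proteins can replace the standard protein in some cells, and 6 pairs could be measured. Rpl22l1, the paralog of Rpl22, had 110, 98.7 and 89.8 CPM in KO libraries, against 108 and 160 CPM in WT libraries. Counts of Rpl22l1 were 20.3, 19.3 and 18.8% of those of Rpl22 in KO libraries and 26.7 and 29.7% in WT libraries. The ratio was lower in each KO than in each WT library, by 0.53 on the log2 scale (exact two-sided permutation p = 0.1, adjusted 0.2 over 6 pairs). With 3 against 2 libraries 0.1 is the smallest p that this test can give.

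Rps4l, annotated in GENCODE as a transcribed processed pseudogene related to the X-linked Rps4x, had 24.7, 25.7 and 26.6 CPM in KO libraries, against 39.0 and 48.9 CPM in WT libraries. All KO values lay below both WT values and close to each other. In the fit across all genes its log2 fold change was -0.77 (SE 0.12, edgeR adjusted p = 0.00225), and Rps4l passed under all 17 alternatives. Its counts were 1.80, 2.05 and 2.54% of those of Rps4x in KO libraries and 4.53 and 4.42% in WT libraries, a log2 difference of -1.09 (exact two-sided permutation p = 0.1, adjusted 0.2). Rps4x, by contrast, had a log2 fold change of 0.32 that did not pass (edgeR adjusted p = 0.170).

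Rpl32l, annotated as a processed pseudogene, stood at 0.148, 0.134 and 0.137% of Rpl32 in KO libraries and 0.199 and 0.194% in WT libraries (exact two-sided permutation p = 0.1, adjusted 0.2), with 16 to 46 counts per library. The other 3 pairs overlapped between groups. The log2 ratio of Rps27l to Rps27 differed by 0.08 (exact two-sided permutation p = 0.8), of Rpl7l1 to Rpl7 by 0.03 (exact p = 0.9) and of Rpl3l to Rpl3 by -0.28 (exact p = 1). Rps27l, which is also a p53 target, had 92.2, 84.4 and 79.0 CPM in KO libraries and 65.8 and 83.4 CPM in WT libraries. Rpl10l and Rpl39l, whose expression is known from the testis, were listed at 0 in all 5 libraries.

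Of the copies, 25 had an entry of their own in the table, the members Rpl32 and Rpl32l among them, which met the rule for each other. Rps15a-ps6, whose pair with Rps15a is shown above, had 80, 48 and 53 counts in KO 1 to KO 3, against 11 and 7 counts in WT 1 and WT 2. All KO values exceeded both WT values, at a log2 fold change of 2.61 (SE 0.37, edgeR adjusted p = 0.00136). Its parent Rps15a had 626, 620 and 510 CPM in KO libraries, against 453 and 645 CPM in WT libraries, with a log2 fold change of 0.09 (SE 0.16, edgeR adjusted p = 0.720). The pair differs in the stretch shown by C117T, T150C and A164G. Ciapin1, a protein-coding gene with a transcript that met the rule for a copy of Rpl7a, also passed, at 0.82 (SE 0.13, edgeR adjusted p = 0.00274), and the other copies did not pass or were too low to test. Whether the counts of Rps15a-ps6 come from its own transcripts or reads from Rps15a was not tested.

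Lists of other translation and ribosome assembly genes had medians near that of the ribosomal protein genes. Of 26 further mRNAs known for a 5′ pyrimidine tract, Eif3f, an initiation factor subunit, rose and Vim, the mesenchymal filament protein, fell, with a list median of 0.24 on the log2 scale. Each direction is 3.85% of the list, below the 9.64% of all genes called higher and the 10.0% called lower. DESeq2 called 5 of the 26 higher, against 10.0% of all genes, and edgeR called 4 higher without KO 3, against 11.8%. Without KO 1 and without KO 2, edgeR called 1 higher, against 5.74 and 5.50% of all genes. Without WT 1 and without WT 2, 20 and 24 of the 26 had a log2 fold change above 0. Eif3f had 955, 836 and 814 CPM in KO libraries, against 582 and 549 CPM in WT libraries. Of 32 genes listed for initiation and elongation, inhibitors included, 6 (18.8%) rose, against 9.64% of all genes tested, and the others did not pass, with a median of 0.24 against 0.01 over all genes. Eif1a, whose product takes part in scanning for start codons, had 178, 150 and 129 CPM in KO libraries, against 77.3 and 74.7 CPM in WT libraries, a log2 fold change of 1.01 (SE 0.13, edgeR adjusted p = 0.00101). The other 5 were Eif4ebp1, Eif3b, Eef2k, Eif6 and Eif5a, at 0.35 to 0.46. Of these, Eif4ebp1 encodes a repressor of cap-dependent initiation and Eef2k the kinase that inhibits elongation factor 2, so both act against translation, and Eif6 encodes a factor that keeps the large subunit from joining the small one. Without WT 1 only Eif1a was called, and 28 of 32 were above 0. Without KO 2, Eif1a was again the only call, and without KO 1, 2 of 32 rose. Of all genes, 5.50 and 5.74% were called higher in these fits. Without KO 3, 10 of 32 rose and 1 fell, against 11.8 and 15.2% of all genes.

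Of 71 ribosome biogenesis genes, 11 (15.5%) rose, against 9.64% of all genes tested, and the others did not pass, with a median log2 fold change of 0.22. Noc4l, a small subunit assembly factor, had 27.7, 30.5 and 26.2 CPM in KO libraries, against 16.2 and 18.5 CPM in WT libraries, at a log2 fold change of 0.70 (SE 0.13, edgeR adjusted p = 0.00450). Gnl3, the nucleolar protein nucleostemin, had 55.2, 61.2 and 51.8 CPM in KO libraries, against 39.3 and 40.5 CPM in WT libraries, at 0.49 (SE 0.11, edgeR adjusted p = 0.0108). Bop1 and Nolc1, both nucleolar, were at 0.42 and 0.49. In these 4 genes the groups did not overlap. Without WT 1, 0 of the list passed in edgeR (12 at an unadjusted p under 0.05, and 57 of 71 above 0), in a fit in which 4.79% of all genes passed, and without WT 2, 5 rose. Without KO 1, KO 2 and KO 3, 7, 2 and 20 of the 71 rose, against 5.74, 5.50 and 11.8% of all genes. Without KO 3, 2 of the 71 also fell, against 15.2% of all genes.

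Among 9 regulators of ribosomal protein genes, Myc, a driver of ribosome production, rose with 64.9, 71.5 and 59.0 CPM in KO libraries, against 23.9 and 27.0 CPM in WT libraries. Its log2 fold change was 1.36 (SE 0.12, edgeR adjusted p = 9.66e-05). Gabpb2, a subunit of the ETS complex GABP, fell, at a log2 fold change of -0.44 (SE 0.10, edgeR adjusted p = 0.0149), and the other 7 did not pass. Of these 9 genes, 1 (11.1%) in each direction stands beside 9.64% of all genes higher and 10.0% lower. The call of Gabpb2 was lost without WT 1 and without KO 1, whereas Myc was called with any 1 library left out. Of 18 genes of the mTOR pathway 1 rose, Akt1s1, a subunit of mTORC1, at 0.33 (SE 0.09, edgeR adjusted p = 0.0356), with a list median of 0.01. That is 5.56% of the list, below the 9.64% of all genes called higher, and Akt1s1 was not called when WT 1, WT 2, KO 1 or KO 2 was left out. DESeq2 and limma-voom each called Akt1s1, Ddit4 and Larp1 of the 18 mTOR pathway genes, 2 of them higher and 1 lower. They called 10.0 and 9.87% of all genes higher and 9.61 and 11.2% lower. Of 21 genes of the p53 response, a list that also holds Trp53 itself and Rps27l, 5 (23.8%) rose. This stands against 9.64% of all genes tested, with a list median of 0.20. The risen genes are named next. These 5 were Trp53, Pmaip1, Ei24, Ccng1 and Fas, at 0.41 to 0.62. Without KO 1, KO 2 and KO 3, 2, 3 and 6 of the 21 rose, against 5.74, 5.50 and 11.8% of all genes. Without KO 3, 1 of the 21 also fell, against 15.2% of all genes. The calls thus varied with the library left out. Without WT 1 and without WT 2, 14 and 15 of the 21 had a log2 fold change above 0. Trp53 itself had 76.1, 77.4 and 71.9 CPM in KO libraries, against 54.4 and 55.7 CPM in WT libraries.

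The 78 mitochondrial ribosomal protein genes, the parts of a separate ribosome inside mitochondria, had a median log2 fold change of 0.15, and 65 of 78 were above 0, against 50.9% of all genes tested. Without WT 1, 39 of 78 were above 0, so the direction of the group rested on that library. Of the 78, 2 (2.56%) were called higher, below the 9.64% of all genes. Mrps6 and Mrpl38 rose, at 1.12 (SE 0.17, edgeR adjusted p = 0.00218) and 0.42 (SE 0.12, edgeR adjusted p = 0.0323). Their summed level was 2774, 2778 and 2519 CPM in KO libraries, against 2156 and 2666 CPM in WT libraries. WT 1 was again the lowest library, as for the cytosolic members, and WT 2 lay within the KO range. Mrps6 was called with any 1 library left out, whereas Mrpl38 was not called without WT 1, WT 2, KO 1 or KO 2. The count higher was 5 of 78 without KO 3, against 11.8% of all genes, and limma-voom called 4 of 78, against 9.87%.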

How the data were processed

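RNA-seq libraries of 3 Ncstn KO and 2 WT mice, described as separate animals, were compared. The deposited values were raw gene counts. The submitters' processing notes name DESeq2, HTSeq 0.11.1, HISAT2 2.1.0 and genome build mm10, and per the labels' protocols a TruSeq RNA kit was used on total RNA. No source used here gives the annotation, the strand setting or the treatment of reads with several alignments, and exons of 19 members overlap a gene on the opposite strand, Rpl12, Rps2, Rps18, Rps28 and Rpl22l1 among them. The 5 summary entries, 39.4 to 50.7% of all tallied reads, stayed out of library sizes and tests.

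Low genes were removed by filterByExpr, at a minimum count of 10 and a total of 15, and libraries were scaled with TMM and tested in edgeR 4.0.16 (R 4.3.3) by the quasi-likelihood test, with Benjamini-Hochberg adjustment over all 14779 genes. The SE was taken from the F value. Limma 3.58.1 and DESeq2 1.42.0 served as alternatives, beside other scalings, other filters, a replicate block and leaving out each library. Copies were found by aligning member coding sequences to GENCODE vM21 transcripts, which matched 85 members by symbol. Paralog ratios used a prior count of 0.5. Replicates of a group differed by more than counting error (chi-square per degree of freedom 7.76 to 30.4), and no library was counted as a repeat of another. No other sample column was left unused. Named members were those past the test, the 5 highest and 5 lowest fold changes, the most abundant, the 5S particle, stalk and paralog genes, and list genes with the smallest p. Other members were named after their values were seen. The members and lists were chosen with earlier results of these data known. A result withheld for evaluation is not reported here.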

Additional observations from a re-analysis of the deposited data

How the results depend on the processing

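Rpl35a and Rps4l kept their direction under all 17 alternatives, and Rps4l passed under each, whereas the calls higher in KO depended on the setting. The count higher (2) became 0 with upper-quartile scaling, with total counts, with the ribosomal protein total as library size and with a filter at 5 CPM, 20 with no filter, 10 with DESeq2 and 4 with limma-voom, and ranged from 0 to 31 when 1 library was left out. The count lower (2) became 5 with the ribosomal protein total and 5 with no filter, and ranged from 1 to 4 when 1 library was left out. Over all genes, 1424 rose and 1483 fell. With the ribosomal protein total 270 rose, and that scaling moved the median of all genes to -0.27. Leaving out 1 library gave 340 to 1743 higher and 375 to 2246 lower. The cause of these moves was not tested.

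With the replicate number as a block, 42 members rose and 5 fell, as did 2211 and 2426 of all genes. In both directions together, 47 of 82 members were called, against 31.4% of all genes. KO 3 has no partner under that block, and the deviations of same-numbered libraries correlated at -0.097 and 0.090, so the numbers were not taken to pair mice. The log2 ratios of Rpl22l1 to Rpl22 (-0.61 to -0.46) and of Rps4l to Rps4x (-1.22 to -0.97) kept their direction when 1 library was left out, whereas those of Rpl3l (-0.87 to 0.72), Rpl7l1 (-0.13 to 0.18) and Rps27l (-0.10 to 0.25) crossed 0. The ratio of Rpl32l to Rpl32 was added after the data were seen. The least abundant tested members (Rpl3l, Rpl30, Rpl32l, Rpl34 and Rps27) are limited by depth, at 1 to 62 counts per library, and reads shared with near-identical copies make the levels of members that have them uncertain.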
